A study of Rattus norvegicus with 232 samples.

Results

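The stretch of rat chromosome 19 from 25 to 30 Mb (rn6), called the main stretch here, carried 515 reconstructed features, which are the genes of a transcriptome assembled from brain reads, out of 2536 on the chromosome and 99376 in all. Members were taken by the start of the feature, and the 174 features that start at 0 to 5 Mb of the same chromosome were set beside them. The interval was chosen by measured values, the correlation of its features' strain means with each other and with those near the chromosome start in the HXB/BXH strains, so its strain pattern in those strains is described without a test. Calls of an F-test over all strains of the main table, the inbred strains and both progenitors included, were also used in that choice. RNA expression was measured in whole brain of untreated inbred rats, labelled male where a sex is given, by stranded sequencing of total RNA depleted of ribosomal RNA. The libraries of the main table came from 45 strains with 3 animals each, 1 library per animal. A later version of the table, used for a few comparisons, held 219 libraries of 74 strains, among them 19 of the FXLE/LEXF recombinant inbred panel, with 1 to 4 animals per strain. Of the 45 strains, 30 belonged to the HXB/BXH recombinant inbred panel, which descends from SHR/OlaIpcv (a spontaneously hypertensive rat) and BN-Lx/Cub (a Brown Norway congenic), and 15 were inbred strains that include both progenitors. The animals of a strain are near-identical in genotype, and per the study a single side of each brain was sequenced. All values are regularized logs of estimated counts on a log2 scale, taken after removal of a factor of unwanted variation, and differences are given on that scale and not as folds.

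A recombinant inbred strain is fixed at each locus for the allele of 1 of its progenitors, so the strains of a panel fall into 2 genotype classes wherever the progenitors differ. Zinc finger genes of the Zfp type, which encode DNA-binding proteins, often stand in tandem arrays of similar copies. Sequence of similar copies is hard to assemble and reads from it are hard to place, and its copy number can differ between strains. Names that begin with AABR or LOC were derived from assembly contigs or predictions and say nothing of function.

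Of the 54 gene names in both stretches, 30 had a promoter in RefSeq (build GRCr8), matched by symbol. A pair of them is shown, that of Zfp791, which is among the 3 genes with the most features, and that of Hook2, whose single feature did not pass the test of the progenitors while its gene did so in a table of annotated genes. Each window runs from 250 bases before the annotated start to 50 bases after it. Capitals mark matches on either strand to the words searched. The first word was CCAAT. The GC box was searched as GGGCGG. The TATA box was searched as TATAAA. In that build, whose strands for both genes are the reverse of those in rn6, the window of Zfp791 lies at chr19:39921598-39921897 (+ strand) and that of Hook2, a linker of vesicles to microtubules, at chr19:40068996-40069295 (- strand).
Zfp791: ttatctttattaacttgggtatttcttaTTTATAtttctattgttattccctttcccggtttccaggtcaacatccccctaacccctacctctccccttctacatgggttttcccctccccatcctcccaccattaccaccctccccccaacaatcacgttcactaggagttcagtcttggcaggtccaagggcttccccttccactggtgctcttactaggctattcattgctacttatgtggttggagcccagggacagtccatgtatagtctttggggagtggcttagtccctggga
Hook2: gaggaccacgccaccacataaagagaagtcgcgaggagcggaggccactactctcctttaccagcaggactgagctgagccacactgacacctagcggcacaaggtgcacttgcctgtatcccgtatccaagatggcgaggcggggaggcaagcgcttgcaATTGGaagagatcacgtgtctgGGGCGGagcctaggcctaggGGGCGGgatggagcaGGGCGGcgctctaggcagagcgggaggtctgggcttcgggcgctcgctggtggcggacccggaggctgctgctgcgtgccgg
The promoter of Zfp791 held 1 TATA box match, on the reverse strand and near the upstream end of the window. It held neither of the other words, at a GC content of 48.7%. That of Hook2 held 3 GC boxes and 1 CCAAT on the reverse strand, at a GC content of 65.0%. Over all 33469 promoters of the table, 37.5% held CCAAT, 33.1% the GC box and 14.2% the TATA box on at least 1 strand.

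Few genes held most of the features with a symbol. At 25 to 30 Mb, 291 features carried a symbol, and they fell under 38 gene names, of which 1 joins a pair of genes that a feature spans. AABR07043421.1 on the + strand had 104 features between 27649489 and 29375146. AABR07043510.1 on the - strand had 71 features over nearly the same bases, from 27625093 to 29373989. Zfp791 on the - strand had 52 features between 26200840 and 27157894. The next genes had far fewer, 11 for AABR07043167.1, 7 for RGD1306072, 4 for Zswim4, 3 for Fbxw9 and 2 for each of 8 genes, of which Nacc1, Lyl1 and Dnase2 had the highest mean level. At 0 to 5 Mb, LOC501297 (- strand, 126639 to 506724) had 37 features and AABR07042623.1 (+ strand, 119453 to 449889) had 29, followed by Pdp2 and Cdh11 with 4 each and Cmtm4 and Nae1 with 3 each. Many features of a gene overlapped each other and could share reads, so the features are not independent measurements of that gene. A feature at 25 to 30 Mb had a median of 2 exons, 1265 bases of exon and a span of 26706 bases. The genes AABR07043421.1 and AABR07043510.1 overlap on opposite strands, and the libraries were made with a stranded kit, but whether reads were counted by strand is not given in the sources used here.

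The progenitors differed over much of the stretch. The F-test calls used in choosing the interval included both of them, so the shares of features called are a description. Of the 515 features, 148 were higher in BN-Lx/Cub than in SHR/OlaIpcv and 6 were lower at a false discovery rate (FDR) of 5% over all features (limma). The shares were 28.7% and 1.17%, against 1.07% and 1.02% over all features tested. At 0 to 5 Mb, 36 of the 174 features were higher in BN-Lx/Cub (20.7%) and 1 was lower (0.575%). The median difference came to 0.89 in the main stretch and 0.29 in the other, against -0.07 over all features. Called features at 25 to 30 Mb differed by 0.90 to 3.88 where BN-Lx/Cub was higher. Per the study, the strain genomes used for alignment carried single-base variants only, so differences of copy number from rn6 were not modelled. Their part in these values was not tested. The 3 animals of BN-Lx/Cub were sequenced in batches 3 and 4 and those of SHR/OlaIpcv in batches 1 and 6, so that batch and strain cannot be told apart within these 6 animals. With batch as a covariate over all libraries, 49 of the 515 features (9.51%) and 13 of the 174 (7.47%) were higher in BN-Lx/Cub, against 0.476% of all features. Lower in BN-Lx/Cub were then 5 of the 515 (0.971%) and 2 of the 174 (1.15%), against 0.608% of all features.

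**Figure D1:**
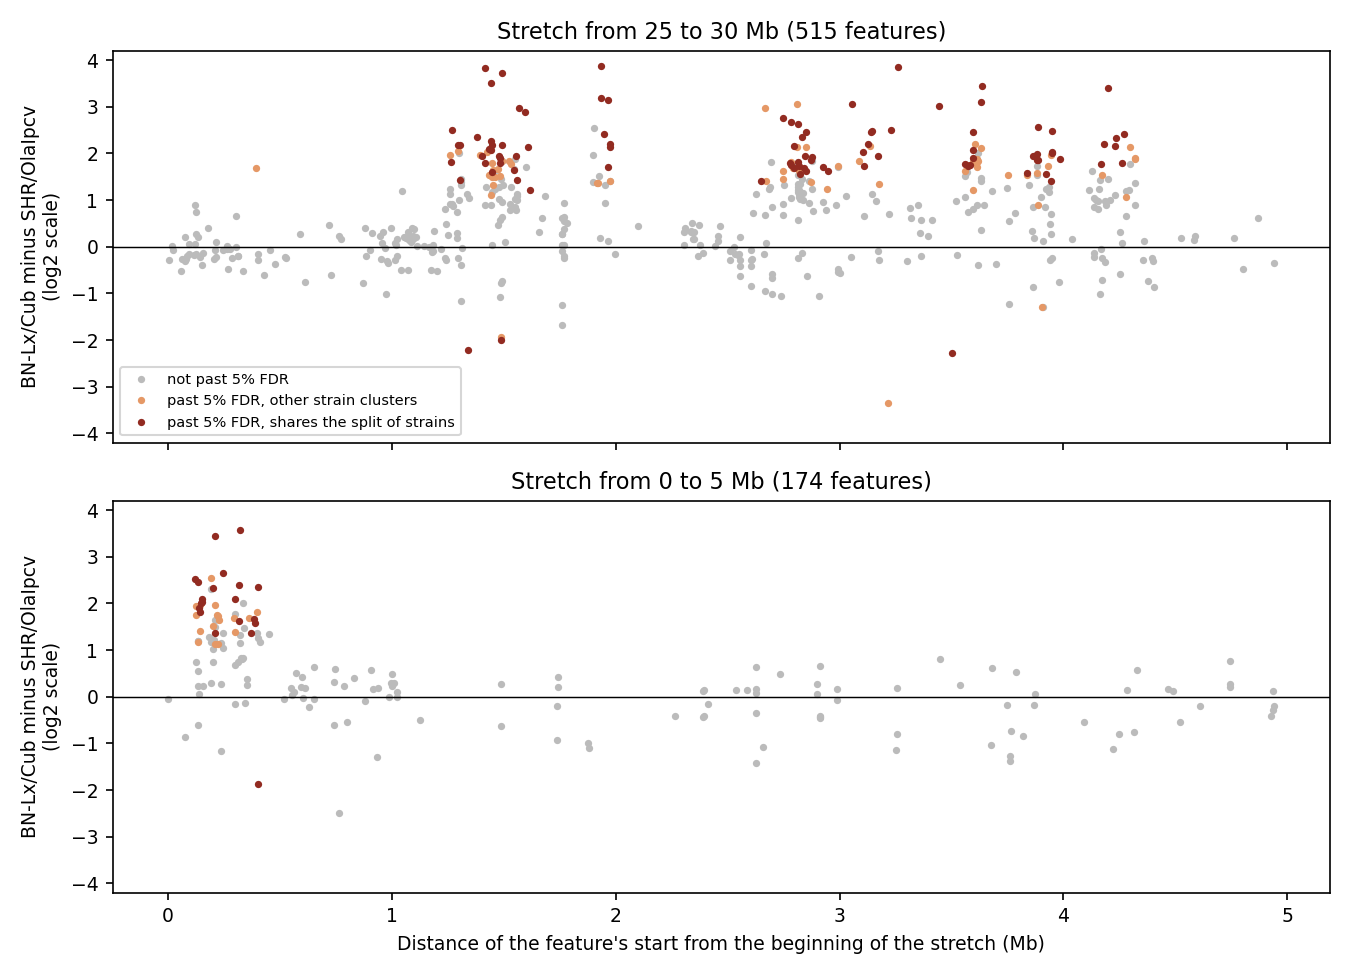
Difference of the strain means, BN-Lx/Cub minus SHR/OlaIpcv (3 animals each, log2 scale), against the distance of each feature's start from the beginning of its stretch in Mb. Called features of the upper panel lie in blocks from 1.25 to 2 Mb and from 2.5 to 4.5 Mb, with 1 feature outside them, and those of the lower panel in the first 0.5 Mb.

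Called features lay in blocks, with 1 exception. From 26.25 to 27 Mb, 53 features (39.3%) were higher in BN-Lx/Cub, and from 27.5 to 29.5 Mb 94 of 255 (36.9%) were. Outside these blocks, 1 of the 100 features from 25 to 26.25 Mb was higher, none of the 18 from 27 to 27.5 Mb and none of the 7 from 29.5 to 30 Mb. The same held near the chromosome start, where 36 of the 79 features in the first 0.5 Mb were higher and none of the 95 features from 0.5 to 5 Mb. The median difference was 1.31 and 1.20 in the 2 blocks of the main stretch and 1.37 in the first 0.5 Mb, and it lay between -0.04 and 0.27 in the other segments. The blocks are those of the genes with many features, and were drawn after the values were seen.

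**Figure D2:**
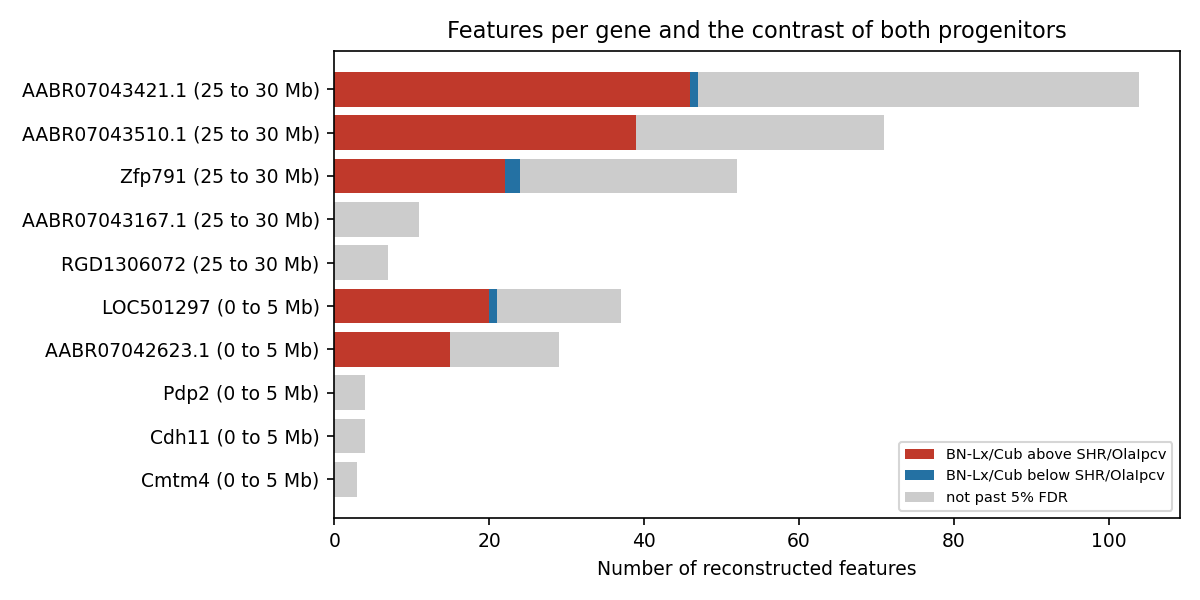
Number of reconstructed features (horizontal axis) of the 5 genes with the most features in each stretch, coloured by the contrast of BN-Lx/Cub and SHR/OlaIpcv at 5% FDR. Calls fell on AABR07043421.1, AABR07043510.1 and Zfp791 at 25 to 30 Mb and on LOC501297 and AABR07042623.1 at 0 to 5 Mb.

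Among the genes with many features, AABR07043510.1 had 39 of its 71 features higher in BN-Lx/Cub and none lower. AABR07043421.1 had 46 of 104 higher and 1 lower, and Zfp791 had 22 of 52 higher and 2 lower. Their median differences were 1.61, 1.40 and 1.29. The next genes by number of features had no call, with 0 of 11 for AABR07043167.1 (median difference 0.01) and 0 of 7 for RGD1306072 (-0.20). LOC501297 had 20 of 37 features higher and 1 lower, with a median difference of 1.49, and AABR07042623.1 had 15 of 29 higher and none lower, with a median of 1.47. The 33 genes of the main stretch with 4 features or fewer had 46 features together. Of these, 4 were higher in BN-Lx/Cub and none lower, and they belonged to AABR07043276.1 (2 features), AABR07043200.1 and LOC100359539. AABR07043276.1 and AABR07043200.1 lie inside the Zfp791 block. No feature with the symbol of a gene such as Prkaca (the catalytic subunit of protein kinase A), Junb (an AP-1 transcription factor), Vps35 (a subunit of the retromer), Orc6 (a subunit of the origin recognition complex), Farsa (a phenylalanyl-tRNA synthetase subunit) or Inpp4b (a phosphoinositide phosphatase) passed the test. The differences of these genes, BN-Lx/Cub minus SHR/OlaIpcv, were 0.06, 0.23, 0.44, 0.23, -0.02 and 0.22. None of the 14 genes with 4 features or fewer at 0 to 5 Mb had a called feature. The 224 features of the main stretch without a symbol held 37 that were higher and 3 that were lower.

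The named feature with the largest difference was a 2-exon feature of Zfp791 at 26934041 to 26944005 (PRN6.5G0212106). Its 3 BN-Lx/Cub animals had 7.09, 7.22 and 7.18, and its 3 SHR/OlaIpcv animals had 3.36, 3.34 and 3.15. The strains did not overlap, and the difference was 3.88 ± 0.41 (SE, n = 3 each; limma adjusted p = 4.2e-12). A second Zfp791 feature, at 26934910 to 26943144 inside the first (PRN6.5G0212107), had 5.61, 4.90 and 5.68 in BN-Lx/Cub and 2.78, 1.59 and 2.24 in SHR/OlaIpcv. Its difference was 3.19 ± 0.51 (limma adjusted p = 3.2e-06). A feature of AABR07043510.1 with 7 exons at 28261732 to 28949172 (PRN6.5G0212273) had 6.72, 6.79 and 6.58 against 2.12, 2.77 and 3.66. Here too no animal of either strain reached the other, with a difference of 3.84 ± 0.50 (limma adjusted p = 8.7e-09). Another feature of that gene, at 29197067 to 29243504 (PRN6.5G0212404), differed by 3.39 ± 0.39 (limma adjusted p = 8.6e-11). The single feature of AABR07043200.1, 315 bases of exon at 26416818 to 26417597, had 6.00, 5.62 and 6.16 in BN-Lx/Cub and 2.19, 1.62 and 2.50 in SHR/OlaIpcv, a difference of 3.82 ± 0.42 (limma adjusted p = 2.4e-11). At 0 to 5 Mb the largest difference of a feature with a symbol was that of AABR07042623.1 at 207648 to 276989 (PRN6.5G0210319), with 4.90, 4.40 and 4.92 against 1.11, 1.18 and 1.58. It came to 3.45 ± 0.42 (limma adjusted p = 9.0e-10). The LOC501297 features PRN6.5G0210334 and PRN6.5G0210312 differed by 2.64 ± 0.54 and 2.54 ± 0.57 (limma adjusted p = 0.00054 and 0.0021), and with batch as a covariate they differed by 2.55 and 1.91 and did not pass the test (adjusted p = 0.11 and 0.32).

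Few features ran the other way. A feature of AABR07043421.1 at 28218087 to 28223653 (PRN6.5G0212269) had 7.85, 7.27 and 7.62 in BN-Lx/Cub and 10.8, 11.2 and 10.7 in SHR/OlaIpcv. Its mean level over all libraries, 10.8, was the highest of the gene's 104 features, which had a median of 3.38. The feature was lower in BN-Lx/Cub by 3.35 on this scale (difference -3.35 ± 0.36, limma adjusted p = 1.7e-11). The HXB/BXH strains did not show the low value of that progenitor. Their strain means ran from 10.3 to 11.9, in 1 cluster, and none was near the 7.58 ± 0.29 (SD, n = 3) of BN-Lx/Cub. Low values stood in 3 other inbred strains, F344/Stm at 7.50 ± 0.39, F344/NCrl at 8.03 ± 0.42 and F344/NHsd at 8.34 ± 1.28 (SD, n = 3 each). LE/Stm lay at 10.1 ± 0.25, and the other 10 inbred strains had means from 10.8 to 11.9. The strain effect of this feature over the 15 inbred strains had a limma adjusted p of 1.3e-11. In Zfp791, features at 26488697 to 26538965 (PRN6.5G0212046) and 26486505 to 26538971 (PRN6.5G0212043), which overlap, differed by -2.0 ± 0.40 and -1.94 ± 0.49 (limma adjusted p = 0.00041 and 0.011). For the first, BN-Lx/Cub animals had 2.49, 2.89 and 2.72 and SHR/OlaIpcv animals 4.18, 4.98 and 4.97, so that the strains stood apart. The second was not called without BN-Lx/Cub replicate 2 (difference -1.52, adjusted p = 0.23), without SHR/OlaIpcv replicate 2 (-1.69, 0.12), in a fit of the 6 libraries alone (-1.94, 0.082) or with batch as a covariate (-2.39, 0.079). A LOC501297 feature at 402105 to 436787 (PRN6.5G0210363), at -1.86 ± 0.49 (limma adjusted p = 0.016), was the only 1 lower in BN-Lx/Cub at 0 to 5 Mb, and was not called without BN-Lx/Cub replicate 2, SHR/OlaIpcv replicate 2 or SHR/OlaIpcv replicate 3 (differences -1.56, -1.80 and -1.75, adjusted p = 0.19, 0.075 and 0.11).

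The strain means of the HXB/BXH panel fell into the same classes over many features. Modality was read from normal mixtures of 1 to 3 clusters over the 30 strain means of a feature. More than 1 cluster was chosen for 241 of the 515 features (46.8%) and 74 of the 174 (42.5%), against 14.9% of all features. With 1 feature per Ensembl gene it was chosen for 5 of 38 (13.2%) and 5 of 16 (31.2%), against 9.76% of all genes so taken, and with a BIC gain over 6 for 29.1% and 18.4%, against 3.94% of all features. Most of the features with more than 1 cluster belonged to AABR07043421.1, AABR07043510.1 and Zfp791 in the main stretch and to LOC501297 and AABR07042623.1 near the chromosome start. Of the 223 features of the main stretch with 2 clusters, 82 gave exactly the same split of strains. The higher cluster held 18 strains, BXH2/Cub, BXH3/Cub, BXH5/Cub, BXH10/Cub, BXH11/Cub, BXH12/Cub, BXH13/Cub, HXB3/Ipcv, HXB5/Ipcv, HXB7/Ipcv, HXB10/Ipcv, HXB13/Ipcv, HXB15/Ipcv, HXB17/Ipcv, HXB18/Ipcv, HXB23/Ipcv, HXB24/Ipcv and HXB29/Ipcv. The lower cluster held the other 12, BXH6/Cub, BXH8/Cub, BXH9/Cub, HXB1/Ipcv, HXB2/Ipcv, HXB4/Ipcv, HXB20/Ipcv, HXB21/Ipcv, HXB22/Ipcv, HXB25/Ipcv, HXB27/Ipcv and HXB31/Ipcv. With at most 1 strain placed otherwise, 120 features of the main stretch shared this split, and in 5 of them the cluster of 12 was the higher. Another 57 of the 223 features had more than 5 strains placed otherwise and did not share the split. At 0 to 5 Mb 22 features shared it, 12 of them exactly, and in 1 of the 22 the direction was opposite. All 142 lay inside the blocks named above, 48 from 26.25 to 27 Mb, 72 from 27.5 to 29.5 Mb and 22 in the first 0.5 Mb. The split was carried by 31 features of AABR07043421.1, 31 of AABR07043510.1, 20 of Zfp791 and 10 each of LOC501297 and AABR07042623.1. Both strands held it about equally, with 56 features on the + strand and 59 on the - strand at 25 to 30 Mb among those in the common direction.

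Of the 99376 features, 175 shared the split, and 33 of these lay outside both stretches. On chromosome 19 they were 13 features from 36127925 to 36263699, among them AABR07043711.2, and 1 feature at 14914754. On chromosome 1, 17 features from 24787305 to 25012346 shared it, among them features of AABR07000733.1 and AABR07000740.2. Chromosomes 2 and X held 1 each. All 33 had the direction of the common split, and 24 of them were also higher in BN-Lx/Cub than in SHR/OlaIpcv at 5% FDR, with a median difference of 1.70. None was lower.

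**Figure D3:**
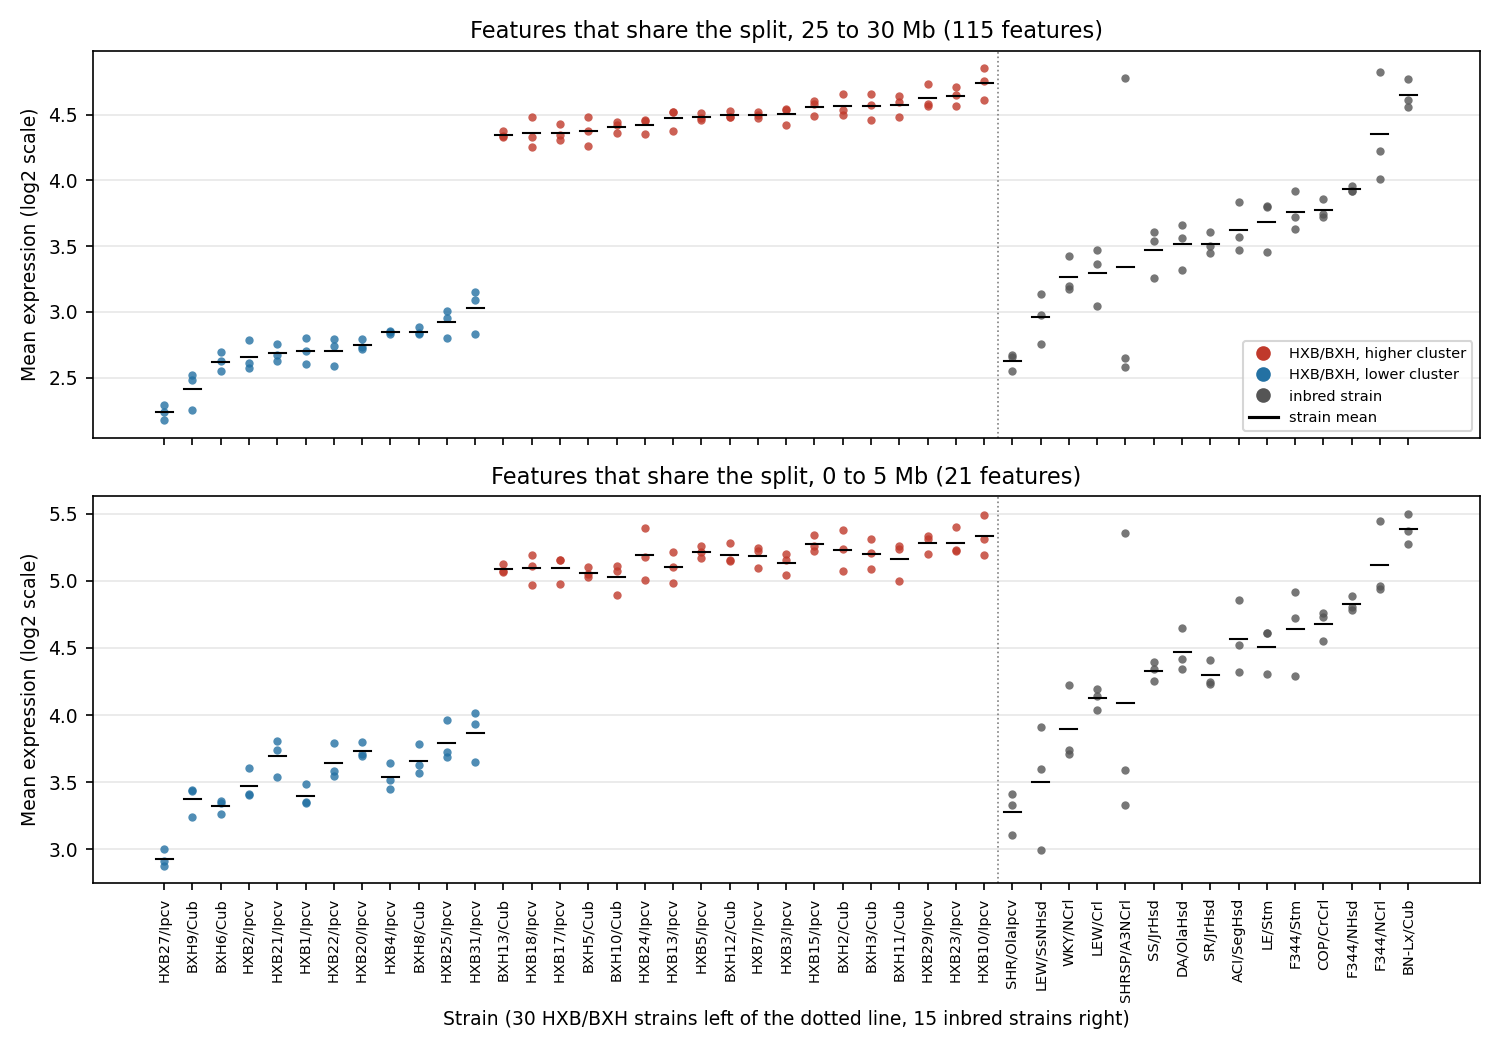
Mean expression (log2 scale) of each animal over the 115 features at 25 to 30 Mb (top) and the 21 features at 0 to 5 Mb (bottom) that share the split in the common direction. Points are animals and lines are strain means. Among HXB/BXH strains no animal of the higher cluster falls to the lower cluster in either stretch, and the means of the inbred strains lie between those of SHR/OlaIpcv and BN-Lx/Cub, at 25 to 30 Mb for SHRSP/A3NCrl only with the library that stands apart at 4.78.

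The level shared by these features, their mean, was computed for each animal. At 25 to 30 Mb the 18 strains of the higher cluster had means from 4.35 to 4.74 with a median of 4.50, and the 12 strains of the lower cluster had means from 2.23 to 3.03 with a median of 2.70. Over animals, the lowest of 54 in the higher cluster had 4.25 and the highest of 36 in the lower cluster had 3.15. At 0 to 5 Mb the strain means ran from 5.03 to 5.33 and from 2.93 to 3.87. The spread between animals of a strain was small beside the gap, with a median SD of 0.07 in the higher and 0.09 in the lower cluster at 25 to 30 Mb. HXB27/Ipcv was the lowest strain in both stretches, at 2.23 ± 0.06 and 2.93 ± 0.06 (SD, n = 3). The clusters were formed on these features, so their separation is a description. The HXB/BXH libraries came from 7 batches, each with animals of both clusters, and in all 7 no animal of the higher cluster reached the lower cluster in either stretch. Within batches the clusters differed by 1.50 to 1.89 at 25 to 30 Mb and by 1.43 to 1.76 at 0 to 5 Mb.

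The progenitors, whose animals took no part in the clusters, were placed with the higher and the lower strains. Their alleles are those that the panel strains carry. The F-test calls used in choosing the interval also included both progenitors, so their places and counts here are a description. BN-Lx/Cub had 4.65 ± 0.11 and SHR/OlaIpcv 2.63 ± 0.07 at 25 to 30 Mb (SD, n = 3 each), and 5.38 ± 0.11 and 3.28 ± 0.16 at 0 to 5 Mb. At 25 to 30 Mb HXB10/Ipcv (4.74) had a higher mean than BN-Lx/Cub, and HXB27/Ipcv (2.23), BXH9/Cub (2.42) and BXH6/Cub (2.62) had lower means than SHR/OlaIpcv. In each of the 115 features of the main stretch that share the split in the common direction, every BN-Lx/Cub animal was above every SHR/OlaIpcv animal, and 91 passed the test (limma, 5% FDR). The same order of animals was found in 7.59% of all features. In the 5 features with the opposite direction, every BN-Lx/Cub animal was below, against 11.2% of all features, and 3 passed. At 0 to 5 Mb all 21 features had BN-Lx/Cub above and 19 passed. Features of the main stretch that did not share the split were less uniform. BN-Lx/Cub was higher in 57 of 395 (14.4%) and lower in 3, against 1.07% and 1.02% of all features. Every BN-Lx/Cub animal was above in 156 and below in 30 of the 395, against 7.59% and 11.2% of all features. The animals of BN-Lx/Cub and SHR/OlaIpcv overlapped in the other 209.

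Values of single features are given for the 18 and the 12 strains, first for features with exactly the common split. In the Zfp791 feature PRN6.5G0212106 the 18 strains ran from 6.58 to 7.07 and the 12 strains from 2.76 to 3.72. In the AABR07043510.1 feature PRN6.5G0212404 they ran from 4.90 to 5.61 and from 1.78 to 3.22. In the AABR07043200.1 feature the ranges were 4.18 to 5.55 and 1.53 to 2.26. The features with a symbol and the highest heritability R2, the share of the total sum of squares that lies between the 45 strains, were PRN6.5G0212199 of AABR07043421.1 (0.950), PRN6.5G0211977 and PRN6.5G0212106 of Zfp791 (both 0.946), PRN6.5G0212263 of AABR07043421.1 (0.945) and PRN6.5G0212170 of AABR07043510.1 (0.942). The first of these ran from 7.16 to 7.74 in the 18 strains and from 3.83 to 6.70 in the 12 strains, so that the lower class was the more spread, and only 1 cluster was chosen for it. The last, PRN6.5G0212170, ran from 5.15 to 7.36 in the 18 strains and from 4.09 to 7.24 in the 12, so that these groups overlapped. Median R2 came to 0.627 in the main stretch, 0.507 near the chromosome start and 0.419 over all features. In an F-test over the 45 strains, 387 of the 515 features (75.1%) and 107 of the 174 (61.5%) were called, against 36.7% of all features. With 1 feature per Ensembl gene, 20 of 38 (52.6%) and 11 of 16 (68.8%) were called, against 65.5% of all genes so taken. Most of the 45 strains are those whose correlations chose the interval, so the counts are a description and nothing is read from them.

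A smaller group of features set HXB27/Ipcv apart. In 14 features of the main stretch and 7 of the stretch at 0 to 5 Mb, 1 cluster held HXB27/Ipcv alone and the other held the remaining 29 strains. HXB27/Ipcv was lower in all 21. They belonged to Zfp791, AABR07043421.1, LOC501297 and AABR07042623.1, and 3 at 25 to 30 Mb had no symbol. The median over these features was 2.36 in HXB27/Ipcv and 4.71 in the other strains at 25 to 30 Mb, and 3.02 and 5.81 at 0 to 5 Mb. SHR/OlaIpcv had medians of 3.97 and 4.88 and BN-Lx/Cub 5.17 and 6.18, so that HXB27/Ipcv lay under both progenitors. These features were picked for that cluster, so the low values of HXB27/Ipcv beside the other HXB/BXH strains are a description. How often it stood alone over all features was not counted. Clusters of 1 strain also held BXH8/Cub and HXB3/Ipcv at 25 to 30 Mb and HXB18/Ipcv at 0 to 5 Mb, in 1 feature each.

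Strain means of both stretches were correlated. Over pairs of features, the mean r2 across the 30 HXB/BXH strains was 0.213 within 25 to 30 Mb, 0.121 within 0 to 5 Mb and 0.156 between the stretches, and the mean r was 0.22, 0.11 and 0.15. With each gene taken as the mean of its features, the mean r2 was 0.097, 0.095 and 0.094, and with 1 feature per gene it was 0.126, 0.111 and 0.118. Between the stretches, 19.0% of 89610 pairs had r above 0.5 and 1.63% had r under -0.5. With features of other chromosomes the mean r2 was 0.040 for the main stretch and 0.044 for the other, and with those at 5 to 25 Mb of chromosome 19, which lie between the stretches, it was 0.051 for both. Within the 18 strains of the higher cluster the mean r2 between the stretches was 0.073, and within the 12 of the lower cluster it was 0.145. These groups are smaller, which by itself raises r2. Left to the features that do not share the split, it was 0.100 over the 30 strains. Over 15 inbred strains the values were 0.132, 0.110 and 0.118. Their smaller number also raises r2, and no values with other chromosomes are given for them. All points share libraries and normalization, and the interval was chosen for these correlations, so no test is given.

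**Figure D4:**
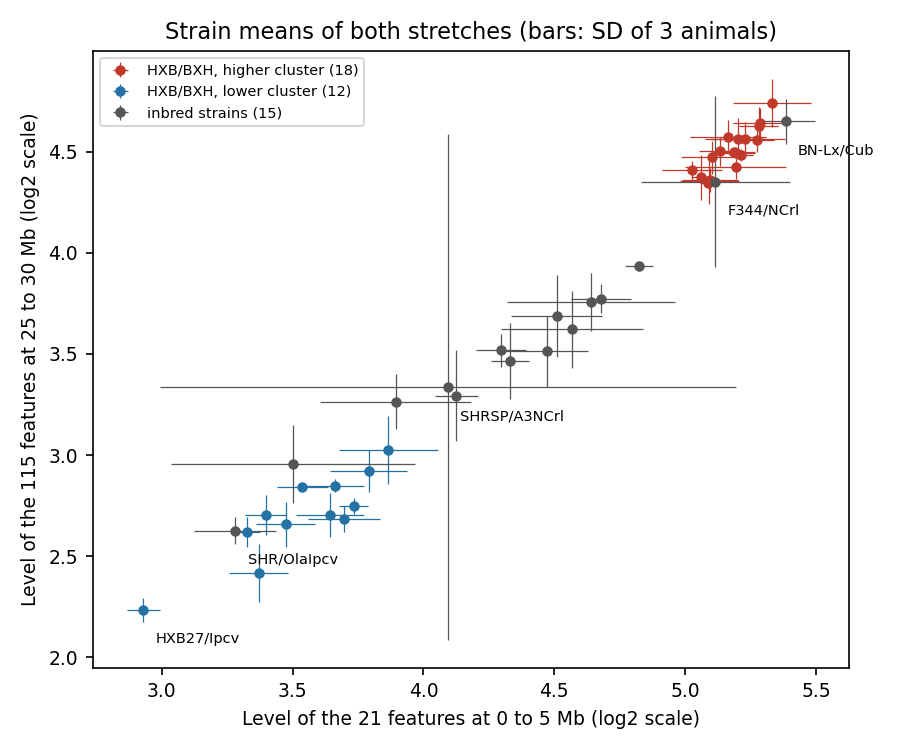
Strain means of the shared level at 25 to 30 Mb (vertical axis) against that at 0 to 5 Mb (horizontal axis), both on the log2 scale, with bars of 1 SD over 3 animals. The 12 lower and 18 higher HXB/BXH strains form separate groups near SHR/OlaIpcv and BN-Lx/Cub, and most inbred strains lie between them on the same line.

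The shared level itself gave r = 0.87 between the stretches within the 18 strains and 0.89 within the 12 strains, and 0.77 within the latter without HXB27/Ipcv. Among the 608 pairs of genes, each gene taken as the mean of its features, Zfp791 with LOC501297 had the highest correlation (r = 0.986), followed by AABR07043421.1 with LOC501297 (0.984) and AABR07043510.1 with AABR07042623.1 (0.971). Within the 18 and the 12 strains these were 0.78 and 0.99, 0.88 and 0.99, and 0.75 and 0.79. HXB27/Ipcv was the lowest of the 12 strains in all 5 of these genes, with 2.41 in Zfp791 where the next strain had 3.15, and 2.39 in LOC501297 where the next had 3.16. Without it the values within the remaining 11 strains were 0.98, 0.98 and 0.71. The gene mean of Zfp791 ran from 4.27 to 4.72 in the 18 strains and from 2.41 to 3.90 in the 12, and that of LOC501297 from 4.43 to 4.78 and from 2.39 to 4.26. The lowest correlations were those of RGD1306072 with Dync1li2, a dynein light intermediate chain (r = -0.74), and of Lyl1, a helix-loop-helix transcription factor, with Pdp2, a phosphatase of the pyruvate dehydrogenase complex (-0.60), and with Cklf, a chemokine-like factor (-0.58). Neither gene of these pairs was split between the clusters. Lyl1 ran from 8.43 to 9.16 in the 18 strains and from 8.62 to 9.08 in the 12, for example.

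Most inbred strains lay between the progenitors on the scale of the shared level. Its features were picked for a split among strains that descend from both progenitors. That choice favours both at the ends, so the order is a description. In the Zfp791 feature PRN6.5G0212106, SR/JrHsd (2.39), DA/OlaHsd (2.65) and SS/JrHsd (3.00) lay below SHR/OlaIpcv (3.28). The other inbred strains lay between the progenitors in that feature. A strain effect over the 15 strains was called for 236 of the 515 features (45.8%) and 57 of the 174 (32.8%), against 13.3% of all features (limma, 5% FDR). These shares fell where a replicate was left out and each strain had 2 animals, to 25.4% and 17.8% without replicate 1, 13.6% and 8.05% without replicate 2 and 14.6% and 13.2% without replicate 3, and those over all features fell to 4.97%, 3.17% and 5.17%. Without both progenitors it was called for 123 (23.9%) and 31 (17.8%), against 8.08%. The F-test calls used in choosing the interval included these strains, so the counts over inbred strains are a description. The shared level at 25 to 30 Mb ran from 2.63 in SHR/OlaIpcv over 2.96 ± 0.19 in LEW/SsNHsd, 3.26 ± 0.14 in WKY/NCrl and 3.29 ± 0.22 in LEW/Crl to 3.93 ± 0.02 in F344/NHsd and 4.65 in BN-Lx/Cub (SD, n = 3 each). Neighbours in that order often overlapped within their spread, such as SS/JrHsd (3.47 ± 0.19), DA/OlaHsd (3.51 ± 0.18), SR/JrHsd (3.52 ± 0.08) and ACI/SegHsd (3.62 ± 0.19). A pair of libraries stood apart from their strain. The library labelled SHRSP/A3NCrl 1 had 4.78 where the other two had 2.58 and 2.65, and the library labelled F344/NCrl 2 had 4.82 where the others had 4.01 and 4.22. Without its first library SHRSP/A3NCrl was the lowest inbred strain, with a mean of 2.62 at 25 to 30 Mb beside 2.63 in SHR/OlaIpcv. Without these libraries the R2 of the shared level over the inbred strains was 0.946 in place of 0.720, and 261 and 61 features were called, against 14.3% of all features. With batch as a covariate, 77 (15.0%) and 20 (11.5%) features were called, against 3.32% of all features.

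A table of Ensembl 96 genes, made for the same 45 strains with 1 value per gene, gave a partly different view of the progenitors. Of 36 genes of the main stretch, 4 were higher in BN-Lx/Cub and none lower, and of 15 genes at 0 to 5 Mb, 1 was higher and none lower, against 2.38% higher and 2% lower over that table (limma, 5% FDR). AABR07043276.1 had 7.17 ± 0.25 in BN-Lx/Cub and 6.07 ± 0.03 in SHR/OlaIpcv (SD, n = 3 each). AABR07043200.1 differed by 1.07 ± 0.12 (SE), AABR07043510.1 by 0.91 ± 0.18 and Hook2 by 0.36 ± 0.09. LOC501297 differed by 0.74 ± 0.14. AABR07043421.1, for which 46 reconstructed features were higher in BN-Lx/Cub, had a single value of 11.99 ± 0.46 and 12.2 ± 0.58 there, a difference of -0.22 ± 0.17 (SE, limma adjusted p = 0.56). Zfp791 had 8.75 ± 0.30 and 9.31 ± 0.37, a difference of -0.55 ± 0.18 (limma adjusted p = 0.060). AABR07043421.1 and Zfp791 thus had no call, with the lower value in BN-Lx/Cub, where most of their called features had the higher. An F-test over the 45 strains called 25 of the 36 genes and 10 of the 15 there, near the 63.6% of that table, and is again a description since most of these strains chose the interval.

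The FXLE/LEXF strains, a second recombinant inbred panel from F344/Stm and LE/Stm, were measured in another version of the table, whose genome build is not given in the sources used here. Matched by gene identifier or symbol, 25 features of genes at 25 to 30 Mb and 10 of genes at 0 to 5 Mb were tested there, and none carried the identifier or symbol of the 5 genes with many features, where names that join several genes were not matched. A strain effect over 17 strains with 43 animals was called for none of them by limma, with 2 and 1 at an unadjusted p under 0.05, against 1.78% called and 13.0% at that unadjusted p over all features. Among RefSeq genes measured in the same version, in 16 strains with 40 animals, 1 of 27 (Palm3, a paralemmin) and 1 of 13 (Cklf) were called, against 5% of all. Of the reconstructed features in that version, 99 had r above 0.8 with the shared level over the 30 HXB/BXH strains and 2 had r under -0.8, out of 84239. Of the 99, 90 were annotated to chromosome 19 and 6 to chromosome X, and 66 carried no symbol. The others included 10 of LOC102554391, 9 of LOC120098582 and 5 of Ces1f, and LOC501297 and Zfp791 stood only in joined names, with LOC102554391 and with LOC120098582, in 1 feature each. Their mean was 5.41 ± 0.19 in BN/NHsdMcwi (SD, n = 3), a Brown Norway substrain that is not among the 45 strains, beside 5.51 ± 0.27 in BN-Lx/Cub and 3.67 ± 0.30 in SHR/OlaIpcv (n = 4). The 19 FXLE/LEXF strains ran from 4.18 to 4.96, inside the range of the HXB/BXH strains from 2.84 to 5.51. A strain effect in FXLE/LEXF strains was called for 3 of the 99, with 23 (23.2%) at an unadjusted p under 0.05, against the 1.78% and 13.0% of all features given above. Those features were chosen on the HXB/BXH strains.

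Other features of the libraries were set beside the shared level. Library medians over all features spanned 3.52 to 4.10. Of the marker lists chosen, those of neurons, astrocytes, microglia, myelin, cerebellum, olfactory bulb, choroid plexus, blood and liver had features, and their means correlated with the shared level at r between -0.15 (liver) and 0.31 (neurons) over the 30 strains. The mean of the neuron list (3 of its 4 genes had a feature) was 14.6 in the 18 strains and 14.5 in the 12, which fits brain as labelled. No feature carried a symbol of the lists of nuclear-retained RNA, mitochondrial genes or pituitary. The part of these cell types in the split was not tested. The features with a symbol nearest to the 25 Mb edge were AABR07043167.1 and Adgrl1. Inside the interval, AABR07043167.1 at 25015721 had a difference of 0.01 and R2 of 0.384, and outside Adgrl1 at 24997742 had -0.11 and 0.485. Just inside 30 Mb, a feature at 29941696 without a symbol had -0.35 and 0.394, and just outside Inpp4b at 30036422 had -0.40 and 0.402.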

How the data were processed

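Libraries of total RNA from whole brain were grouped by strain, panel, replicate number and batch as labelled. Per the study and the submitters' processing notes, the authors trimmed reads (cutadapt 1.9.1), removed ribosomal reads (Bowtie2 2.3.4.3), aligned to strain-specific rn6 genomes that differ from the reference by single-base variants only (HISAT2 2.1.0), reconstructed transcripts per strain with StringTie 1.3.5 guided by Ensembl 96 and merged them. The authors estimated counts with RSEM, dropped features below background, removed 1 factor of unwanted variation and applied the regularized log of DESeq2. The deposited values are read as a score on that log2 scale, since single values exceed any log2 count. No table holds counts, so the depth is unknown and no counting interval was computed; the number of animals limits the precision. For some samples of the later table the notes list Bowtie2 2.4.5, HISAT2 2.2.1, StringTie 2.2.1 and RSEM 1.3.3, and its further steps and build are not given in the sources used here. One column of SHR/OlaIpcv fits 2 sample labels of the same replicate number and batch and was used by its group. In 25 libraries the title gives another batch number than the batch label, which was used.

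Positions came from the deposited annotation. Strain effects were tested by the moderated F-test and BN-Lx/Cub against SHR/OlaIpcv by a contrast over all libraries of the 45 strains in limma 3.58.1 (R 4.3.3), with Benjamini-Hochberg adjustment over all 99376 features and no covariate. Animals are separate per the study; p-values measure the spread between them. Strain means were clustered with mclust 6.1.1 (equal variance, 1 to 3 clusters, BIC). Scripts were tested on simulated data. Members and lists were chosen with earlier results of these data known. Named features were the 10 and 5 genes with most features, the 5 and 3 largest called differences each way with a symbol, the 5 highest R2, and the 3 highest and 3 lowest gene pairs between the stretches. Genotypes were not used here, and the rn6 sequence of the features was not used here.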

Additional observations from a re-analysis of the deposited data

How the results depend on the processing

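Shares of features called are given in percent, for 25 to 30 Mb and then for 0 to 5 Mb. The strain effect over 45 strains (75.1 and 61.5, all features 36.7) is a description since the HXB/BXH strains chose the interval. It was 58.4 to 64.9 and 40.8 to 49.4 without 1 replicate (all features 12.2 to 21.8), each lowest without replicate 2. With 1 feature per Ensembl gene it was 52.6 and 68.8 (all genes 65.5). BN-Lx/Cub above SHR/OlaIpcv (28.7 and 20.7, all features 1.07) is a description too, and it fell with batch as a covariate to 9.51 and 7.47 (all features 0.476). In the Ensembl 96 table it was 11.1 and 6.67 (all genes there 2.38). With 1 feature per Ensembl gene it was 13.2 and 12.5, and leaving out each of the 6 animals gave 20.4 to 23.5 and 15.5 to 20.1. For these last settings no share over all features is given, so an excess over it cannot be read from them. BN-Lx/Cub below (1.17 and 0.575, from 6 and 1 features) was 2.63 and 0 with 1 feature per gene, 0 and 0 in the Ensembl 96 table, 1.15 at 0 to 5 Mb with batch, 1.28 there with features above the table's median only, and 0.777 to 1.17 and 0 to 1.72 without single animals. The strain effect over inbred strains (45.8 and 32.8) was 13.6 to 25.4 and 8.05 to 17.8 without 1 replicate, where each strain has 2 animals, and the lowest values came without replicate 2 (all features 13.3, and 3.17 to 5.17). The R2 of the shared level over inbred strains (0.720 and 0.774) was 0.946 and 0.915 without the libraries labelled SHRSP/A3NCrl 1 and F344/NCrl 2, added after seeing the data. Also added after seeing the data, the share with a strain effect over inbred strains was 23.9 and 17.8 without both progenitors and 15.0 and 11.5 with batch as a covariate. For FXLE/LEXF strains the RefSeq table gave 3.70 and 7.69 in place of 0 and 0.

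More than 1 cluster (46.8 and 42.5) was chosen for 29.1 and 18.4 at a BIC gain over 6 (all features 14.9, and 3.94 here). With 1 feature per gene the shares were 13.2 and 31.2 (all genes 9.76). With medians of the animals the share at 0 to 5 Mb was 49.4 (all features 21.9). Without 1 replicate the shares were 44.9 to 45.4 and 33.3 to 41.4 (all features 17.0 to 17.9). The mean r2 (0.213 within 25 to 30 Mb, 0.121 within 0 to 5 Mb, 0.156 between) was 0.180, 0.103 and 0.133 for Spearman's rho, 0.126, 0.111 and 0.118 with 1 feature per gene, 0.097, 0.095 and 0.094 with gene means and 0.335, 0.245 and 0.283 for features with a strain effect. It was 0.180 to 0.197, 0.106 to 0.117 and 0.134 to 0.147 without 1 replicate. Within the 18 strains, added after seeing the data, it was 0.076, 0.072 and 0.073, and within the 12 strains 0.152 and 0.139 in the stretches. Without HXB27/Ipcv, also added then, it was 0.134 in the first and 0.131 between them within the remaining 11. The cause of these shifts was not tested, and settings with 1 feature per gene test fewer features.

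Replicate numbers name animals and pair none. Deviations of same-numbered BN-Lx/Cub and SHR/OlaIpcv animals correlated at -0.23, -0.02 and 0.00 over the 689 features. With the replicate block, 45.05 and 30.5 percent had a strain effect over inbred strains, against 13.2 percent of all features. With that block 28.9 and 20.7 percent were higher in BN-Lx/Cub, and no share over all features is given for this contrast. Over the 12 named features and their alternatives, 9 repeats lost the call, 3 of them with batch as a covariate, and 0 changed sign.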
